A study of Mus musculus with 4 samples.

Results

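Very long genes, here the 945 protein-coding genes of chromosomes 1 to 19 that span 200 kb or more between their outer bounds, held 11357 of the 113404 open chromatin regions found in mouse colonic organoids. A region counted as a member when its strongest summit lay inside such a gene and more than 1 kb from either outer end of any annotated gene, so the counts describe gene interiors and leave promoters at the outer ends aside. The members were 10.2% of the 111280 regions on these chromosomes (Wilson 95% interval 10.0 to 10.4%), while the long genes were 4.57% of the 20665 protein-coding genes there. These 2 shares do not show that long genes were rich in regions, because each long gene also holds more sequence. Per 100 kb of sequence more than 1 kb from any gene end, long genes held 2.91 regions, against 7.72 in coding genes under 200 kb.

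Accessible chromatin had been mapped by bulk ATAC-seq, an assay in which Tn5 transposase cuts and tags DNA that is free of packed nucleosomes, in organoids of the colonic epithelium of wild-type mice. There were 4 groups with 1 library each, all labelled with the same batch: organoids from mice with chronic colitis treated for 24 h with 10 µM T-5224, an inhibitor of the AP-1 transcription factor, organoids from control mice treated with T-5224, and colitis and control organoids that received 0.1% DMSO for 24 h. The organoids had been frozen alive and thawed before their nuclei were taken. Only 1 peak list for the series was used, with no value for a single library, and the sources used here do not say which libraries entered the call. Neither T-5224 against DMSO nor colitis against control was therefore compared, no replicate stands behind any value, and there is no p-value. All intervals are at 95% and cover counting error only, and the depth of the libraries is unknown. All 10 markers of colonic epithelium had a summit at an outer gene end, with a median of 44.8-fold over background, the authors' ratio of the signal at the summit to 1 background, and a lowest value of 21.0-fold. Summits at the ends of 2 of 6 leukocyte markers, 2 of 6 markers of fibroblast, endothelium and muscle and 5 of 6 neuronal and glial markers reached at most 4.99, 6.49 and 9.16-fold. The part of non-epithelial cells in the regions of neuronal genes was not tested.

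Genes of this size consist almost wholly of introns, and the enhancers that control a gene or its neighbours often lie in them. The longest mammalian genes are mostly genes of the nervous system, which encode synaptic adhesion proteins, neurotransmitter receptors and ion channels and are mostly silent in epithelium. A smaller set encodes scaffolds of cell junctions and of the actin cytoskeleton, on which epithelial shape and polarity rest. Many long genes also have start sites far inside their outer bounds, from which shorter transcripts begin.

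Such internal start sites give a direct view of what was open and what was not. The windows printed here are RefSeq start-site windows on GRCm38.p6, the same assembly as mm10, from 250 bases before to 50 bases after a start site more than 1 kb from any outer gene end. The first 3 are the windows with the strongest regions in epithelial long genes, the next is that with the strongest region in a neuronal long gene, and the last 2 are, at 1 window per gene, the neuronal windows richest in CG dinucleotides without any region. Each runs 5′ to 3′ on the strand given, and capitals mark CG.
Nr3c2, chr8:76902080-76902379, plus strand: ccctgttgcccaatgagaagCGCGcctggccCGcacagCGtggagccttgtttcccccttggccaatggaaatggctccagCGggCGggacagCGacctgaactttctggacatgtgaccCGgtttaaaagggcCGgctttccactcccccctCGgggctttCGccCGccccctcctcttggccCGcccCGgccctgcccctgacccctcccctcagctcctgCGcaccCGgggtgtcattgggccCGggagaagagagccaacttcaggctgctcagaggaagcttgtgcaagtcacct
Lmo7, chr14:101840373-101840672, plus strand: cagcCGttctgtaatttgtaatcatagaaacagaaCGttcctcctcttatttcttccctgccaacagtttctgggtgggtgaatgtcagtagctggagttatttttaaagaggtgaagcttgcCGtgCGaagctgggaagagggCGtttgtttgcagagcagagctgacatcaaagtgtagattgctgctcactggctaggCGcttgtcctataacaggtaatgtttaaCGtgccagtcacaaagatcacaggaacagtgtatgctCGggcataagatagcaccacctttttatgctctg
Shroom3, chr5:92809132-92809431, plus strand: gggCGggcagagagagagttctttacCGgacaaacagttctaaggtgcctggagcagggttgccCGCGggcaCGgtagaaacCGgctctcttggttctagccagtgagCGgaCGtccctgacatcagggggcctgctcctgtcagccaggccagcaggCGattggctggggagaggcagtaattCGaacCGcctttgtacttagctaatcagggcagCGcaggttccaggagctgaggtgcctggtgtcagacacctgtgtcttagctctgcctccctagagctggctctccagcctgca
Dab1, chr4:104367288-104367587, plus strand: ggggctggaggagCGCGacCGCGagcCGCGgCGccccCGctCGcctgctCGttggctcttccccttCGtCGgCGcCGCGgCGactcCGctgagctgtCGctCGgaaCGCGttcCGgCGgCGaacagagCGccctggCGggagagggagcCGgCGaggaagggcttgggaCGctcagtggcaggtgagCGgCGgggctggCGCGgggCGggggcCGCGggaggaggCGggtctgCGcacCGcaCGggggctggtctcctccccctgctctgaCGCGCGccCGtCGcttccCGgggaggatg
Anks1b, chr10:90829593-90829892, plus strand: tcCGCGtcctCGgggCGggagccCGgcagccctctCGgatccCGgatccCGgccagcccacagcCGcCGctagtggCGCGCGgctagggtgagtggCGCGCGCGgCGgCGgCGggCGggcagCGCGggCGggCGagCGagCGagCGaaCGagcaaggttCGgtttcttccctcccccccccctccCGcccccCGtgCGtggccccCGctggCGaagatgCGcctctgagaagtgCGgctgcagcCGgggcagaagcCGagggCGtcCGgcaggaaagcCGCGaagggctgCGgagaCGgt
Adgrl3, chr5:81020321-81020620, plus strand: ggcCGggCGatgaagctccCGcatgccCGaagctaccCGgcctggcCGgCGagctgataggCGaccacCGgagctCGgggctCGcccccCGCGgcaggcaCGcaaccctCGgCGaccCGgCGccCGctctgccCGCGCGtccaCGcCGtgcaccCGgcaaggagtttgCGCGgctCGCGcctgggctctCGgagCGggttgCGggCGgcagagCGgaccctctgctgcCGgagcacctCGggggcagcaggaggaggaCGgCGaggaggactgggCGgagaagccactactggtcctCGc

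The Nr3c2 window (17 CG), 4.25 kb from the outer 5′ end of the mineralocorticoid receptor gene, lay in a region of 4138 bp with 7 summits that reached 77.1-fold (71.4 to 83.2). The Lmo7 window (8 CG) lay 111 kb into its gene, in a region of 12731 bp with 24 summits and 62.3-fold (57.1 to 67.7). The Shroom3 window (12 CG) lay 126 kb into its gene, in a region of 3807 bp with 48.7-fold. The neuronal windows printed here had more CG, but Anks1b and Adgrl3 were picked for high CG without a region. Their contrast with the epithelial windows is therefore set by the choice. Over all internal windows without a region the median was 8.5 CG in neuronal and 4.5 CG in epithelial genes. With a region it was 16 CG in 3 neuronal windows and 13 CG in 19 epithelial windows. Dab1, an adaptor of reelin signalling in migrating neurons, had 46 CG and 7.54-fold. The windows of Anks1b, a postsynaptic protein (45 CG), and Adgrl3, the adhesion receptor latrophilin 3 (40 CG), overlapped no region.

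Over all internal windows, 19 of 31 in epithelial long genes overlapped a region (61.3%, Wilson interval 43.8 to 76.3%), against 3 of 55 in neuronal long genes (5.45%, 1.87 to 14.9%). The share was 34.6% of the 437 internal windows of all long genes. Regions covered 1.75% of the eligible sequence of all long genes, 7.23% of that of epithelial and 0.38% of that of neuronal genes. Coverage and the share of windows are unlike measures, because a window counts at any overlap. The epithelial windows with a region had a median of 16.7-fold and belonged to genes such as Tjp1 (40.0-fold), Cobl (31.1-fold), Cux1 (20.3-fold) and Foxp1, which had regions at 3 internal windows. Windows with at least 15 CG overlapped a region in 9 of 9 cases in epithelial genes (70.1 to 100%) and in 2 of 20 in neuronal genes (2.79 to 30.1%), beside 86 of 127 in all long genes (67.7%). With fewer CG the numbers were 10 of 22 in epithelial genes and 1 of 35 in neuronal genes, beside 65 of 310 in all long genes (21.0%). The epithelial interval for CG-rich windows thus reached down to near the share of all long genes, whereas the neuronal interval lay below that share. The windows came from 21 epithelial and 37 neuronal genes, and some windows of the same gene overlap. The intervals take each window as independent and are therefore too narrow.

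The AP-1 motif, searched as TGACTCA or TGAGTCA, which are each other's reverse complement, had nearly the same share in internal windows with and without a region. It was found in 9 of 151 windows with a region (5.96%) and in 17 of 286 without (5.94%), against 5.26% of all 31396 start-site windows on these chromosomes. Overlapping windows of the same gene were counted separately. In epithelial long genes 1 of the 19 windows with a region held the motif. It is shown here with the motif in capitals, because T-5224 is directed at the factor that binds this motif.
Vav3, chr3:109573757-109574056, plus strand: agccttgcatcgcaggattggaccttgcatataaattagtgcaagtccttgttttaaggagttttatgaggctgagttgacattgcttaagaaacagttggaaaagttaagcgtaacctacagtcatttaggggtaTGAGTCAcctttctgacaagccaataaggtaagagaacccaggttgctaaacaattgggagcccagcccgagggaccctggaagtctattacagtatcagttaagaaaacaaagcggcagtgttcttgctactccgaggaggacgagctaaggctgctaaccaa
This window of Vav3 lay 234 kb from the outer 5′ end, in a region of 628 bp with 7.65-fold. A match to the letters is a description and does not show that the factor was bound.

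**Figure D1:**
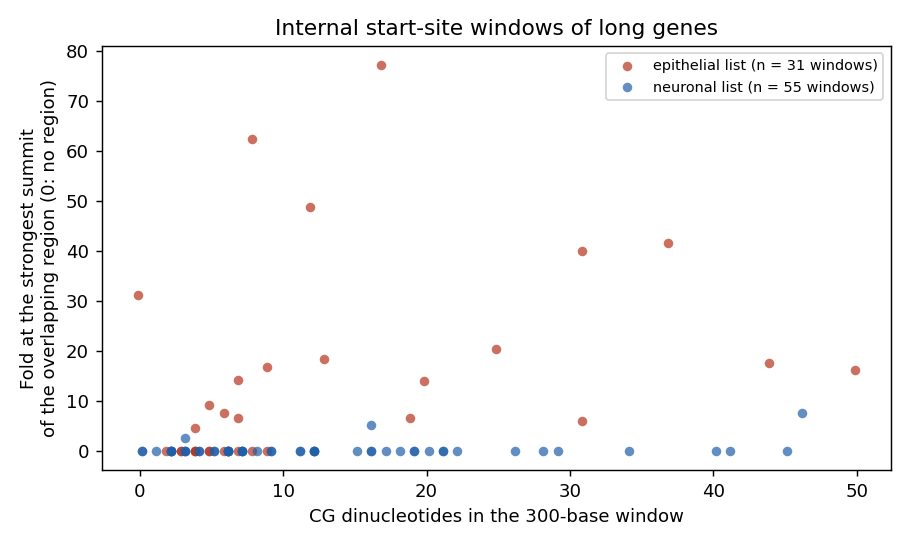
CG dinucleotides per 300-base window (x axis) and the authors' fold at the strongest summit of the overlapping region, 0 where there is none (y axis), for internal start-site windows of epithelial (red) and neuronal (blue) long genes, 1 point per window. Red points reach 77.1-fold, whereas the 3 blue points above 0 reach 7.54-fold at most, also among the windows richest in CG.

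Regions were far denser in epithelial than in neuronal long genes. The lists came from textbook knowledge of where each gene is used and were made with earlier results of these data known. The 36 epithelial long genes held 1271 regions in 13.0 Mb of eligible sequence, the part of a gene more than 1 kb from any gene end, and the 101 neuronal long genes held 595 regions in 82.2 Mb. This was 0.0978 regions per kb, or 1 region per 10.2 kb, in epithelial genes, against 0.00723 per kb, or 1 per 138 kb, in neuronal genes, a ratio of 13.5 (exact interval 12.3 to 14.9 from counting error). The median epithelial gene had 9.58 regions per 100 kb (25th to 75th percentile 6.38 to 12.3) and the median neuronal gene had 0.388 (0.0980 to 0.951). All long genes together had a median of 2.05 and a summed density of 2.90 per 100 kb. Fewer cells of a type in the culture and less opening per cell cannot be told apart in such bulk data. Genes are not replicates of a condition, so these spreads describe the genes and not the error of an experiment.

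At least 1 region per 20 kb was found in 29 of 36 epithelial genes and in 3 of 101 neuronal genes, beside 25.6% of all 945 long genes (242). The groups overlapped at their edges: 23 of 36 epithelial genes were denser than the densest neuronal gene, and no neuronal gene was denser than the median epithelial gene. Above the median of all long genes lay 33 of 36 epithelial and 10 of 101 neuronal genes. Of the 50 densest long genes 7 were on the epithelial list, which holds 36 of all 945 long genes. None of them were on the neuronal list, which holds 101, and most were on neither list. No region at all was found in 1 epithelial and 23 neuronal genes, and in 102 of the 945 long genes.

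**Figure D2:**
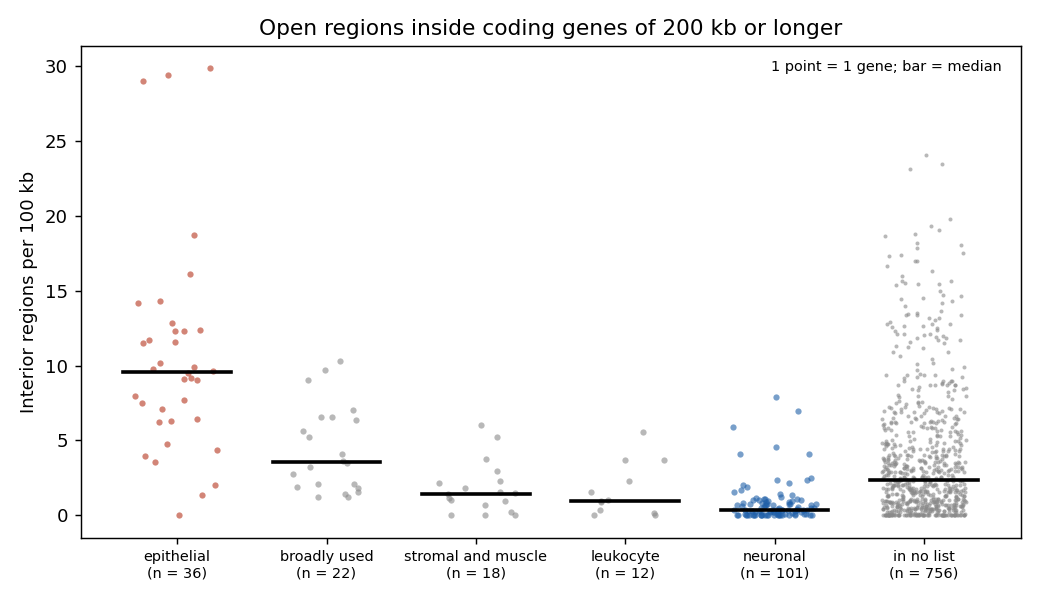
Interior regions per 100 kb (y axis) for each long gene (points), by gene list (x axis, with the number of genes), with the median as a bar. The epithelial median is 9.58 and the neuronal median 0.388, and the broadly used, stromal and muscle, leukocyte and unlisted genes lie between them.

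Neuronal long genes were also longer, with a median length of 758 kb against 331 kb for epithelial genes, and density fell with length over all long genes. The median was 3.41 regions per 100 kb in the 412 long genes under 300 kb, 1.81 in the 317 between 300 and 500 kb, 1.06 in the 161 between 500 and 1000 kb and 0.599 in the 55 of 1000 kb or more. Within each band the medians of the 2 lists remained apart, although single genes overlapped in the bands under 1000 kb. The lowest epithelial and the highest neuronal gene had 0 and 7.87 per 100 kb between 200 and 300 kb. They had 2.01 and 6.97 between 300 and 500 kb, and 1.35 and 5.92 between 500 and 1000 kb. Between 200 and 300 kb the medians were 11.6 in 14 epithelial and 1.24 in 4 neuronal genes. Between 300 and 500 kb they were 9.39 in 14 epithelial and 0.338 in 27 neuronal genes, and between 500 and 1000 kb 9.52 in 7 epithelial and 0.393 in 39 neuronal genes. The single epithelial gene above 1000 kb, the polarity gene Pard3b, had 3.54, against a median of 0.358 and a highest value of 2.19 in 31 neuronal genes.

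**Figure D3:**
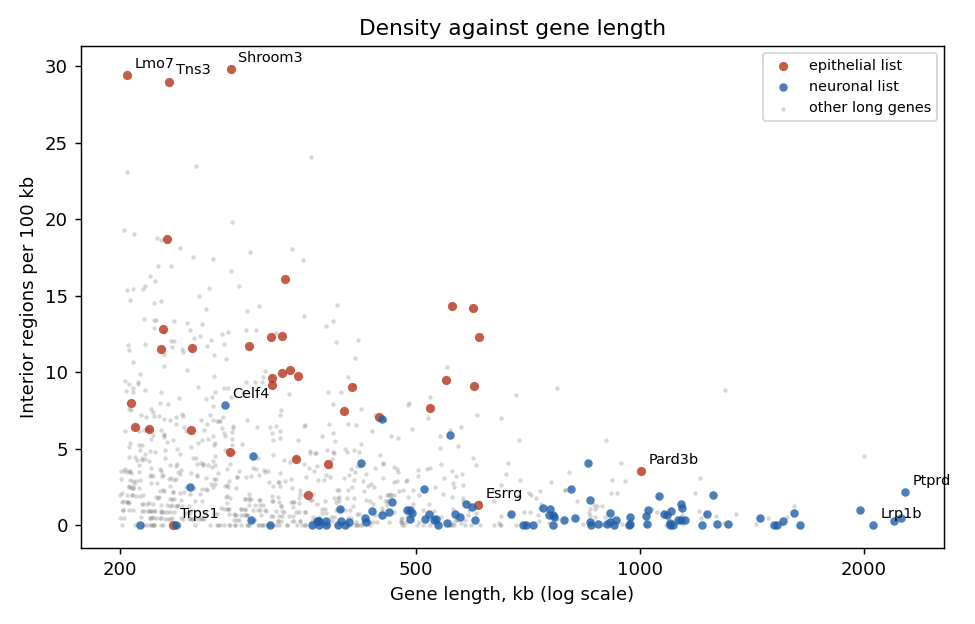
Gene length in kb on a log scale (x axis) against interior regions per 100 kb (y axis), 1 point per long gene, with epithelial genes in red, neuronal genes in blue and all others in grey. Shroom3, Lmo7 and Tns3 stand highest near 30 regions per 100 kb, Trps1 is the red point at 0, and no blue point lies above 7.87.

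The 3 densest of all 945 long genes were epithelial genes of cell shape and adhesion. Shroom3 (NCBI Gene 27428, chromosome 5, 92683435 to 92965759), which drives apical constriction of epithelial cells, held 83 regions, or 29.8 per 100 kb (23.8 to 37.0). Lmo7 (NCBI Gene 380928, chromosome 14, 101729928 to 101934708), a LIM domain protein of adherens junctions, held 59 regions, or 29.4 per 100 kb (22.4 to 37.9). Tns3 (NCBI Gene 319939, chromosome 11, 8431652 to 8664758), a tensin of focal adhesions, held 67 regions, or 29.0 per 100 kb (22.5 to 36.8). Their intervals overlapped almost wholly, so the order among them is not resolved. In these 3 genes the called regions covered 28.4%, 38.2% and 24.9% of the eligible sequence, against 1.75% over all long genes. Shroom3 had only 3.36-fold at its outer ends, so its strong signal lay inside the gene.

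Among the other junction genes Tjp1, which encodes the tight junction scaffold ZO-1, held 43 regions (18.7 per 100 kb), and Magi1, a further tight junction scaffold, held 73 (12.3 per 100 kb). The 9 polarity and junction scaffold genes had a median of 9.52 regions per 100 kb and ranged from 3.54 to 29.8. Of the 11 cytoskeletal and motor genes, with a median of 9.93 and a range of 2.01 to 29.0, Cobl, an actin nucleator, had 12.8 and Frmd4b, a FERM domain scaffold, had 12.4. The 4 transport genes had a median of 10.4 and ranged from 7.11 to 16.1, led by Nedd4l, a ubiquitin ligase that limits the epithelial sodium channel, with 52 regions. The 8 transcription factor genes had a median of 10.6 and ran from 0 to 14.3, led by Mecom, a zinc finger factor, with 78 regions (14.3 per 100 kb) and Foxp1, a forkhead factor, with 82 (14.2 per 100 kb). The 4 signalling genes had the lowest median of these groups, 5.55, and ranged from 4.37 to 9.04.

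The least dense epithelial genes overlapped the neuronal ones. Trps1, which encodes a GATA-type zinc finger repressor, held no region in 236 kb, where 3 counts would give 1.29 per 100 kb, although a summit of 3.94-fold lay at an outer end. Esrrg, the estrogen-related receptor gamma, held 8 regions (1.35 per 100 kb, 0.581 to 2.65). Tiam1, an activator of Rac, held 7 (2.01 per 100 kb), Pard3b 35 (3.54 per 100 kb) and Thrb, a thyroid hormone receptor, 15 (3.98 per 100 kb). Of the 36 epithelial genes 22 are also widely used in brain. Their median was 9.28 per 100 kb, against 11.6 in the 14 others.

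Several of the densest neuronal genes held many of their regions in a single window of 50 kb. This is not particular to them: over all long genes the densest such window of each gene held 43.3% of the regions. Celf4, an RNA-binding protein of neurons, held 21 regions (7.87 per 100 kb, 4.87 to 12.03). Syn3, a synapsin of synaptic vesicles, held 30 (6.97 per 100 kb), of which 11 lay inside Fbxo7 or Timp3, the coding genes that overlap it. Kirrel3, an adhesion protein of the immunoglobulin family, held 32 (5.92 per 100 kb), of which 17 fell in a single window of 50 kb. Dlgap1, a postsynaptic scaffold, held 34 (4.08 per 100 kb), of which 21 fell in such a window, beside a stretch of 519 kb without any. Syt1, the calcium sensor of synaptic vesicle release, held 12 (2.37 per 100 kb), 9 of them in 50 kb. The other 5 of the 10 densest were Cacna1a (4.54) and Cacnb4 (2.49), calcium channel subunits, Rbfox3 (4.09), an RNA-binding marker of mature neurons, Adgrl3 (2.37) and Ptprd (2.19), a receptor phosphatase of synapses, with values per 100 kb.

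Among neuronal genes without any region were several of the longest in the genome. Lrp1b (NCBI Gene 94217, chromosome 2, 40595290 to 42653598), a lipoprotein receptor family gene, held none in 2058 kb, the longest empty stretch of all long genes; 3 counts there would give 0.147 per 100 kb. The others of the 10 longest were the complement-control family genes Csmd1 and Csmd3, the splicing factor gene Rbfox1, the potassium channel partner Dpp10, the ErbB4 ligand Nrg3, the netrin receptor Dcc, the adhesion gene Cadm2 and the glutamate receptor genes Grm7 and Grm8. Of these 10 genes 7 lacked a summit at both outer ends, about the same share as in all neuronal long genes (71 of 101). Over all 945 long genes it was 373. Cadm2 had 20.2-fold, Grm8 9.39-fold and Csmd3 2.67-fold at an outer end. By role, the median was 0.236 per 100 kb in 17 neurotransmitter receptor genes, 7 of them without a region, and 0.275 in 12 axon guidance genes. It was 0.352 in 35 adhesion genes, 0.663 in 17 genes of ion channels and partners and 0.972 in 20 genes of presynaptic, scaffold and RNA-processing proteins.

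**Figure D4:**
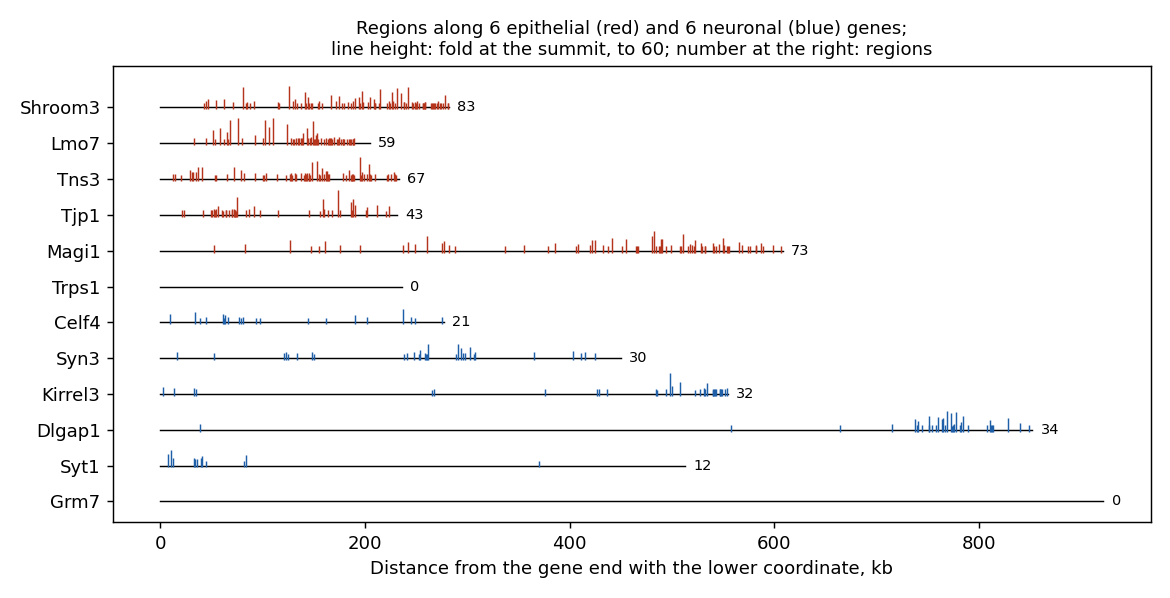
Position of each interior region along 6 epithelial genes (red) and 6 neuronal genes (blue), as distance in kb from the gene end with the lower coordinate (x axis). The height of a line is the authors' fold at the summit, drawn to 60-fold at most, and the number at the right is the count of regions. Shroom3, Lmo7 and Tns3 are filled along most of their length, Dlgap1 and Syt1 hold most of their regions near 1 end, and Trps1 and Grm7 are empty.

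Regions in epithelial genes followed each other at a median distance of 3.45 kb between summits, against 12.7 kb in neuronal genes, and 75.2% and 46.2% of these distances were under 10 kb. The densest 50 kb window of each gene held 38.2% of the regions in epithelial genes and 47.2% in neuronal genes, although such windows made up 13.1% of the length of epithelial and 4.68% of that of neuronal genes. The longest stretch without a region was 57.7 kb in the median epithelial gene and 407 kb in the median neuronal gene. It took more than 50% of the gene in 2 of 36 epithelial and 71 of 101 neuronal genes, beside 392 of all 945. Both measures depend on the number of regions per gene: the 23 neuronal genes without a region count with their whole length as the stretch, and a single region fills its densest window by itself. They do not show uneven placement beyond the smaller number of regions.

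By 10 equal parts along the gene, the 27 epithelial and 75 neuronal long genes of known strand had their highest densities at opposite ends. Density here is over all bases of a part, including those within 1 kb of a gene end, where no member can lie. Regions in epithelial genes were densest in the first of 10 equal parts from the 5′ end, with 13.3 per 100 kb (145 regions, of which 18 lay in Ptprk, 15 in Magi1 and 14 in Lpp), and least dense in the last, with 6.32 (69 regions). In neuronal genes the first of these parts had 0.581 per 100 kb (37 regions) and the last 1.34 (85 regions, of which 18 lay in Dlgap1 and 9 in Syt1). All 707 long genes of known strand were also densest in the first part, with 3.92 per 100 kb, against 2.89 in the last. Between 1 and 10 kb from the 5′ end the density was 18.1 per 100 kb in epithelial genes (13.2 to 24.3) and 1.93 in neuronal genes (1.03 to 3.29). Over the same distance from the 3′ end it was 6.58 in epithelial genes (3.76 to 10.7) and 1.78 in neuronal genes (0.919 to 3.11). The 2 neuronal intervals overlapped almost wholly, so at this distance no denser end of neuronal genes was resolved. All long genes of known strand had 7.29 near the 5′ end and 3.58 near the 3′ end. In each of the 10 parts the epithelial density was the higher, with intervals that did not overlap.

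**Figure D5:**
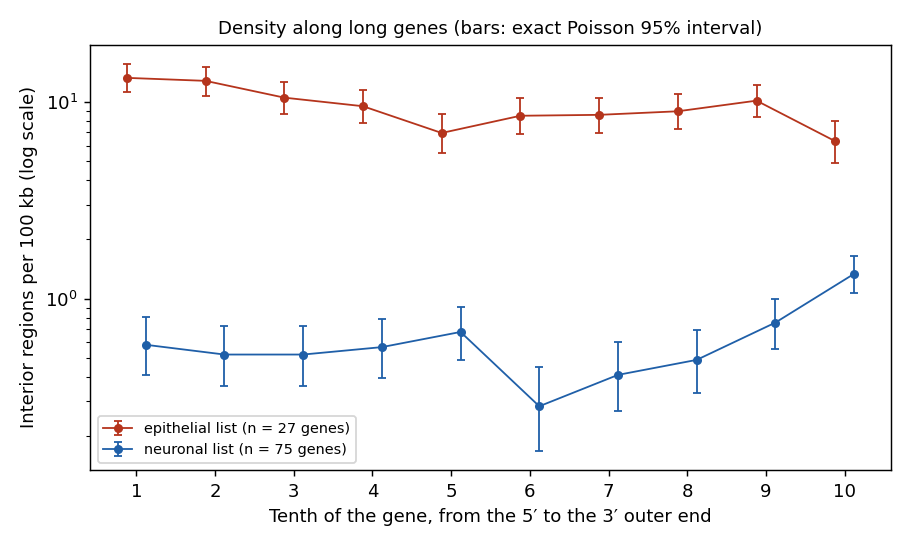
Interior regions per 100 kb of whole length on a log scale (y axis) in each of 10 equal parts of the gene from the 5′ to the 3′ outer end (x axis), for 27 epithelial (red) and 75 neuronal (blue) long genes, with exact Poisson 95% intervals as bars. The red line runs between 6.32 and 13.3, the blue line between 0.283 and 1.34.

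The regions differed less in strength than in number. The authors' fold at the strongest summit had a median of 4.87 in epithelial genes (25th to 75th percentile 3.13 to 10.4) and 4.17 in neuronal genes (3.01 to 7.36). At 10-fold or more were 328 of 1271 regions in epithelial genes (25.8%) and 105 of 595 in neuronal genes (17.6%), beside 21.5% of all members and 27.1% of all regions on these chromosomes. At 20-fold or more the shares were 11.96% (10.29 to 13.9%) in epithelial and 5.55% (3.98 to 7.69%) in neuronal genes. Regions were also wider in epithelial genes, with a median of 486 bp against 397 bp, and 23.2% of them against 11.6% had more than 1 summit. Strong regions alone gave a larger ratio of densities than all regions did: 2.52 regions of 10-fold or more per 100 kb in epithelial genes against 0.128 in neuronal genes, 19.8 times as many.

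The strongest member lay where the genes Cmss1 and Filip1l overlap, at chromosome 16, 57391132 to 57391839. It had 323-fold (311 to 335) in 708 bp and was the only member above 100-fold. The single background of the fold does not divide out copy number or mappability, and their part in this value was not tested. The next was inside Hdac4, a histone deacetylase gene, at chromosome 1, 92179132 to 92181541, with 82.1-fold (76.2 to 88.4), followed by the Nr3c2 region already described. The other 7 of the 10 strongest lay in Fer (71.3-fold), Camk1d (71.0-fold), Rps6ka2 (70.1-fold), Tjp1 (66.5-fold), Lmo7 (66.4-fold), Arhgap26 (65.2-fold) and Xkr4 (64.8-fold), with overlapping intervals. In neuronal genes the strongest regions included those in Kirrel3 (49.7-fold, 45.1 to 54.7) and Ptprd (46.1-fold, 41.7 to 50.9). These values were near that of the strongest region in Shroom3 (48.7-fold).

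Interior density went together with the state of the outer ends. A summit within 1 kb of an outer end was present in 32 of 36 epithelial genes, with a median over all 36 of 16.9-fold, and in 30 of 101 neuronal genes, beside 60.5% of all long genes. Over all long genes the median density was 3.54 per 100 kb in the 572 with such a summit and 0.729 in the 373 without. The lists differed within both states. With a summit at an end the medians were 9.34 in epithelial and 0.934 in neuronal genes, and without it 9.69 in 4 epithelial and 0.327 in 71 neuronal genes. Atp10b (11.6 per 100 kb), Nr3c2 (9.75), Sorbs2 (9.63) and Slc4a4 (7.11) were the 4 epithelial genes without one. Regions did overlap internal start-site windows of Nr3c2 (77.1-fold), Slc4a4 (16.1-fold) and Sorbs2 (14.3-fold), while another Slc4a4 window overlapped none. An outer end without a summit therefore does not mean that every start site of the gene was closed. Dlg2, a postsynaptic scaffold gene, had 67.7-fold at an outer end but 20 regions in 1973 kb (1.03 per 100 kb).

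The other lists lay between. The 22 broadly used long genes, needed in most cell types, had a median of 3.56 regions per 100 kb (1.93 to 6.50) and at least 1 region each, and 9 of them reached 1 region per 20 kb. Rad51b, a DNA repair gene (10.3), Vti1a, a gene of vesicle fusion (9.70), and Uvrag, an autophagy gene (9.03), were densest. The 18 stromal and muscle genes had a median of 1.46 (0.775 to 2.25) and were led by Ltbp1, a matrix gene that binds latent TGF-beta (6.02), Abi3bp (5.23) and Tshz2 (3.74). The 12 leukocyte genes had a median of 0.987 (0.333 to 2.64) and were led by Bach2, a partner of small Maf proteins (5.56), Dock8 (3.71) and Tox (3.68). All 3 lists were lower than the epithelial list in median, and all 3 were higher than the neuronal list.

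After Shroom3, Lmo7 and Tns3, the densest long genes were Aopep, an aminopeptidase gene (24.0 per 100 kb), Cers6, a ceramide synthase (23.5), Cmip (23.1), the glycosylation enzymes Mgat5 (19.8) and St3gal3 (19.3), the coactivator Zmiz1 (19.1) and Runx1, a Runt domain transcription factor (18.8). Runx1 (chromosome 16, 92601466 to 92826074) held 41 regions without a summit at either outer end, while a region of 55.6-fold overlapped an internal start-site window. The 5 longest genes differed: Macrod2 held 90 regions in 1998 kb (4.55 per 100 kb) and Ptprd 49 in 2271 kb, whereas Cntnap2 held 10, Lsamp 6 and Lrp1b none. The densest 94 genes held 31.6% of all regions counted over the long genes.

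Compared with the rest of the list, the interiors of long genes were sparser in regions than those of shorter coding genes and slightly denser than the sequence between genes. They held 2.91 members per 100 kb (2.85 to 2.96), against 7.72 (7.65 to 7.80) in coding genes under 200 kb and 2.64 (2.61 to 2.67) between genes. The summed density of epithelial long genes, 9.78 per 100 kb (9.25 to 10.3), exceeded that of the shorter genes, and that of neuronal long genes, 0.723 (0.666 to 0.784), was below that between genes. The median fold was 4.64 for members, 4.29 in shorter genes, 4.87 between genes and 11.01 at gene ends, and the median width was 450, 452, 453 and 925 bp in the same order. Only 139 members (1.22%) touched an internal start-site window, and these had a median of 14.3-fold against 4.64-fold for the other members. Over the 19 chromosomes members had a density of 3.002 ± 0.553 per 100 kb (SD, n = 19 chromosomes). On each of the 13 chromosomes with genes of both lists the epithelial density was the higher, 9.78 ± 3.72 against 0.796 ± 0.515 per 100 kb (SD, n = 13 chromosomes).

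The length threshold cuts through a continuous range. The 24 genes just above it, up to 205 kb, had a median of 2.57 regions per 100 kb, and the 30 just below it, from 195 kb, had 4.01. The shortest member gene was Plcxd3 with 200.1 kb and 1 region, and the longest gene outside was Atp9b with 199.9 kb and 6 regions. The 82 members between 1000 and 1200 bp from a gene end had a median of 3.94-fold.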

How the data were processed

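The data were 1 narrowPeak list for 4 ATAC-seq libraries. Bowtie2, MACS2 and the mm10 build come from the submitters' processing notes. The sources used here do not state thresholds, duplicate handling or which libraries were pooled. The deposited fold is a linear ratio of the summit to 1 background. The deposited score was not used further, and the authors' −log10 q served only as a filter in an alternative. The authors' fold times 8.63 was whole in 100% of records (tolerance 0.01), which fits a pileup plus 1 over a constant background, so the pileup was recovered and given exact Poisson intervals. Pileups are reads or fragments at the summit, and PCR copies among them are not independent. Differences in copy number and mappability are not divided out.

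Each of the 157922 records was joined into its region and placed by its strongest summit. Gene bounds came from NCBI genes on GRCm38.p6. All 222 listed genes were found. Strand was known for 707 of 945 long genes from the RefSeq start-site table. Density is regions over bases more than 1000 bp from any gene end, except for positions along the gene, where it is over all bases. In more than 1 long gene lay 58 members, which count for each. A count of 0 is given with the density of 3 counts. Python 3.11.15, pandas 2.3.3 and scipy 1.17.1 were used, and the density code was tested on simulated data.

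Named were the 10 densest and 5 least dense epithelial genes, the 10 densest neuronal genes and the 10 longest without a region, the 3 densest of the other lists, the 10 densest and 5 longest long genes and the strongest regions, of which 1 is not reported here. Genes of internal windows, the genes without an end summit, Dlg2, the genes named for the first and last parts of the gene and those in the map were chosen after their values were seen, as were the comparisons of CG content and of internal start sites. Members and lists were chosen with earlier results of these data known.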

Additional observations from a re-analysis of the deposited data

Results flagged for a closer look

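X-linked genes were outside the chromosomes examined, and 185 regions lay inside the 45 X-linked coding genes of 200 kb or longer. Their summed density was 0.940 regions per 100 kb and their median 0.395, and 18 of the 45 held none. Mid1, a microtubule-associated ubiquitin ligase, had the highest density, 11.6 per 100 kb (34 regions), followed by Sh3kbp1, an endocytic adaptor, with 6.34 (22 regions). Dmd, the muscle dystrophin gene, held 4 regions in 2390 kb and the synaptic gene Il1rapl1 held 1 in 1375 kb. The number of X chromosomes per cell is not given in the labels.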

How the results depend on the processing

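The epithelial density exceeded the neuronal one under all 12 alternatives tried, with ratios of summed densities between 12.3 and 18.2 (13.5 as reported). With a −log10 q of at least 10 there were 6654 members, medians of 5.52 epithelial and 0.184 neuronal regions per 100 kb and a ratio of 15.1. Counting every summit gave an epithelial median of 12.02 and a ratio of 16.9. Genes of 100 kb or longer held 22919 members, with an epithelial median of 11.99 and a ratio of 15.6, and genes of 300 kb or longer held 6453 members. Without genes also used in brain the epithelial median was 11.6 and the ratio 18.2. Leaving out the genes named in earlier results gave a ratio of 12.6, with 34 epithelial and 100 neuronal genes. For the settings whose value is not given here, the number of members lay between 10023 and 14212, the epithelial median between 9.18 and 9.58, the neuronal median between 0.375 and 0.417 and the ratio between 12.3 and 14.3. No paired analysis was possible because the list has no value for a single library, and for the same reason no library could be left out. Depth limits the weakest calls: the median member had a pileup of 39 (27.7 to 53.3).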

Other observations

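Listed genes under the length limit, of 83.2 to 198.8 kb, differed in the same direction. The 21 epithelial genes under 200 kb had a median of 14.7 interior regions per 100 kb and ranged from 6.88 in Svil to 49.5 in Fat1, an atypical cadherin gene. The 5 neuronal genes under 200 kb had a median of 1.58 and ranged from 0 in Kcnc2, a potassium channel gene, to 3.81 in Cacna1b, a calcium channel gene. Pdlim5, a PDZ and LIM domain protein gene, held 66 regions in 156 kb (42.8 per 100 kb), and Tcf7l2, the main TCF factor of the intestine, held 48 in 192 kb (25.5 per 100 kb). The leukocyte gene Ptprc and the mesenchymal cadherin gene Cdh11 held none.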
